A study of Homo sapiens with 4 samples.

Results

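NEAT1 is a long non-coding RNA that stays in the nucleus and forms the scaffold of paraspeckles, and its contacts with PR100 were followed here at single-nucleotide resolution. It was chosen by name, as 1 of the 62700 genes of the annotation, and its data are the crosslinking events and the clusters that lie inside the gene span on its own strand. The libraries come from improved individual-nucleotide crosslinking and immunoprecipitation (iiCLIP), in which UV light joins a protein to the RNA it touches, the protein is pulled down, and the cDNA copied from the RNA stops at the nucleotide that was joined. Each unique cDNA is 1 crosslinking event. All 4 libraries were made from HEK293T, a human embryonic kidney cell line, and belong to 1 condition. The cells were transiently transfected with a plasmid for PR100-FLAG, 100 proline-arginine repeats with a triple FLAG tag, which was induced with 150 ng/ml doxycycline for 24 h before crosslinking at 254 nm with 160 mJ/cm2. PR100 is a model of poly(PR), a dipeptide repeat protein made from the expanded C9orf72 repeat in familial amyotrophic lateral sclerosis and frontotemporal dementia. It was over-expressed here from the plasmid and not made from an expanded repeat of the cells. The complexes of replicates 1, 2 and 3 were run on SDS-PAGE, those of replicate 4 were kept on beads, and the random barcode used to count unique cDNAs was 7 nt long except in replicate 3, where it was 5 nt. Control libraries and those of GA100 are not analysed here, so every comparison is within PR100-FLAG libraries, between places of the same RNA or between RNAs.

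The NEAT1 gene makes a short and a long RNA from the same start. The short isoform ends early at a polyadenylation site, and the long isoform reads past that site and carries the middle domains that hold a paraspeckle together. The proteins NONO and SFPQ bind along the long isoform, and its ends lie at the surface of the paraspeckle while its middle lies in the core. CLIP counts follow how much of an RNA is present as well as how often the protein touches it, and the start of the gene is present in both isoforms. More short isoform and more contact per molecule therefore cannot be told apart in the counts of the first part of the gene.

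In the annotation used here (GRCh38, GENCODE 44), NEAT1 (ENSG00000245532) lies on the plus strand at chr11:65422774-65445540 and is 22767 nt long. Its long isoform is a single exon of 22743 nt, so nearly the whole span is exonic and non-coding. The short isoform that begins at the gene start runs over the first 3684 nt. Positions below are counted in nt from the gene start. The span was divided into the short isoform part (nt 1 to 3700), the middle (nt 3701 to 19067) and the 3′ end (nt 19068 to 22767).

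The contacts of PR100 were spread along the RNA, but the authors' clusters mark places where events gathered. The sequences of 4 of the 5 clusters with the most cDNAs in the pooled list are shown as the stretches of NEAT1 in which PR100 events gathered most. Each runs 5′ to 3′ on the plus strand of GRCh38, from 5 nt before to 30 nt after the cluster. Capitals mark nucleotides at which 3 or more cDNAs ended over the 4 libraries.
cluster 1, chr11:65422831-65422969, short isoform part: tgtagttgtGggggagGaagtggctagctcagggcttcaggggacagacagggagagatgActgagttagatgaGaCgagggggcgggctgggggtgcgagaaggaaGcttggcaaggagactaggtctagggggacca
cluster 3, chr11:65424948-65425093, short isoform part: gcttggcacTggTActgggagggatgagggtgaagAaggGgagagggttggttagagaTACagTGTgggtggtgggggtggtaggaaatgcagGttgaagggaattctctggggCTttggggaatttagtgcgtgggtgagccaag
cluster 11, chr11:65440912-65440986, middle: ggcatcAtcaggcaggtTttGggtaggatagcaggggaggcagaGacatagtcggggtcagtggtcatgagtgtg
cluster 15, chr11:65445378-65445477, 3′ end: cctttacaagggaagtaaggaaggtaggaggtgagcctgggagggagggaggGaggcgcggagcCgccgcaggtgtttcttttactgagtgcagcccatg

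The libraries differed in depth and in how the cDNAs were placed. They held 125694 to 604816 crosslinking events in all. NEAT1 had 496, 521, 194 and 129 events in replicates 1 to 4, a pooled total of 1340 events on 785 positions. Reads that shared a position and a random barcode had been counted once by the authors, and the intervals below are exact 95% intervals that cover counting error only. Nothing in the labels says whether the 4 libraries came from separate cultures, so p-values measure the spread between these libraries.

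Replicate 3 stood apart in its stacking. In replicates 1 to 4, NEAT1 carried 1.49, 1.69, 4.13 and 1.02 cDNAs per crosslinked position. Over all positions of each library the same ratio was 1.47, 1.67, 2.16 and 1.15, so replicate 3 was the highest there as well. In MALAT1, a nuclear RNA from the neighbouring gene, it was 2.29, 2.66, 3.66 and 1.64. Positions with 5 or more cDNAs held 4.44%, 8.25%, 61.3% and 0% of the NEAT1 events of these libraries. Of the 18 such positions in replicate 3, 1 had an event in another library at the same nucleotide and 12 had one within 10 nt. Replicate 3 was also the library with the shortest random barcode, and the part of the barcode in the stacking was not tested.

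**Figure D1:**
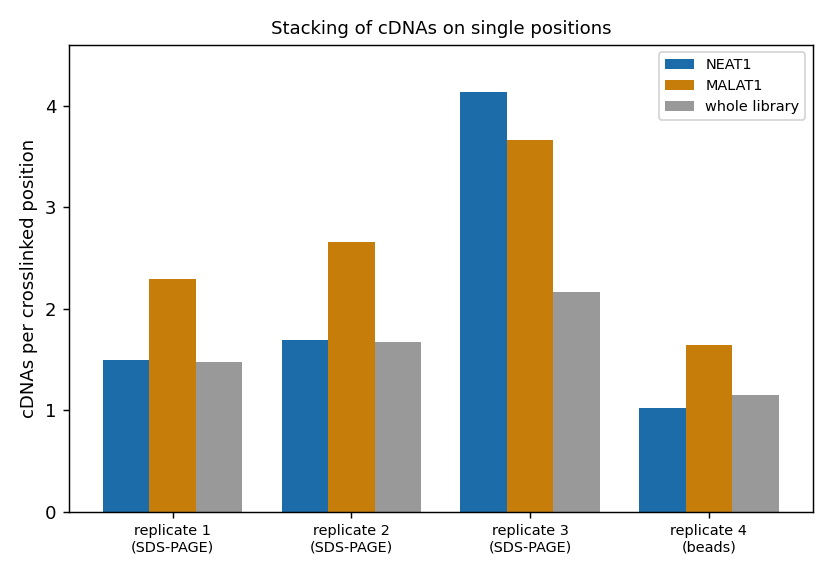
cDNAs per crosslinked position (linear axis) in NEAT1, MALAT1 and the whole library, for the 4 PR100-FLAG libraries; each bar is 1 library value with no error. Replicate 3 reached 4.13 in NEAT1 against 1.02 to 1.69 in the other libraries.

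NEAT1 was among the RNAs with the most PR100 crosslinking events in 3 of the 4 libraries. Its level, scaled to the total of the library as CPM, was 1484.8 (interval 1357.0 to 1621.4) in replicate 1. It was 861.4 CPM (789.0 to 938.7) in replicate 2. It was 1543.4 CPM (1333.9 to 1776.6) in replicate 3. It was 718.1 CPM (599.6 to 853.3) in replicate 4. Replicates 1 and 3 were high and replicates 2 and 4 low, the intervals of the high and the low libraries did not overlap, and the mean was 1151.9 ± 422.9 CPM (SD, n = 4). By events per gene, not per length, NEAT1 ranked 5, 14, 6 and 44 in replicates 1 to 4, and 8 in the pooled data. With each position counted once the levels were 1462.0, 853.6, 807.3 and 806.9 CPM in replicates 1 to 4 (mean 982.4 ± 320.5), so replicate 3 was then no longer high and replicate 1 stood alone.

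The events followed the NEAT1 transcript and fell away outside it. The antisense strand of the same span held 0 events in replicates 1, 3 and 4 and 6 events in replicate 2. Against a floor of 3 counts per library, the NEAT1 strand was at least 165.3-fold higher in replicate 1, at least 64.7-fold higher in replicate 3 and at least 43.0-fold higher in replicate 4. In replicate 2 the ratio was 86.8 (interval 39.6 to 237.7). The 10 kb on each side of the gene, of which 752 nt belong to the neighbouring FRMD8, held 3 events in replicate 1, 1 in replicate 2 and 0 in replicates 3 and 4 on the same strand. Per length the span was 145.2-fold (49.4 to 706.7) above these flanks in replicate 1, and at least 56.8-fold and at least 37.8-fold higher in replicates 3 and 4. In replicate 2, with its single flanking event, the ratio was 457.7 (81.8 to 18111.7), or 152.6 with the floor of 3 counts that the test used. With each position counted once replicate 3 moved most, to at least 15.7-fold over the antisense strand and at least 13.8-fold over the flanks. All 4 libraries showed the same direction in both comparisons, with exact two-sided sign-flip permutation p = 0.125 for each, which is the smallest p that 4 libraries allow.

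The small annotated RNAs inside the span cover little of it and held few of the events. MIR612, a microRNA hairpin of 100 nt in the 3′ end, had 0 events in all libraries. At the limit of 3 counts this allows a share of up to 0.224% of the 1340 pooled events. The 3 small features annotated as miscellaneous RNAs within the short isoform part, ENSG00000278144, ENSG00000278050 and ENSG00000277599, held 3, 10 and 6 pooled events. They are 120, 105 and 159 nt long. Pooled events were 118.6 per kb in the short isoform part and 47.6 per kb in the 3′ end. Whether the small RNAs differed from their surroundings was not tested. The first 100 nt of the gene held 30 events and the last 100 nt held 4. ENSG00000275948, a small RNA of 58 nt annotated directly past the end of the long isoform, had 0 events as well.

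The short isoform part was crosslinked more densely than the rest of the RNA in every library. It held 180 of 496, 164 of 521, 60 of 194 and 35 of 129 events in replicates 1 to 4. These are shares of 36.3%, 31.5%, 30.9% and 27.1% (mean 31.4% ± 3.77, SD, n = 4), on 16.3% of the length of the gene. The lower bound of every interval, 32.1%, 27.5%, 24.5% and 19.7%, lay above that share of the length. These intervals treat each cDNA as a separate event, while the 60 events of replicate 3 lay on 16 positions, so its interval may be too narrow.

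The middle and the 3′ end were close to each other in density. The middle held 264, 280, 108 and 73 events in replicates 1 to 4, or 53.2% to 56.6% of the NEAT1 events on 67.5% of the length. The 3′ end held 52, 77, 26 and 21 events, or 10.5% to 16.3% on 16.3% of the length. Mean densities were 100.1 ± 44.2 CPM per kb in the short isoform part, 41.0 ± 14.9 in the middle and 41.0 ± 10.9 in the 3′ end (SD, n = 4).

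**Figure D2:**
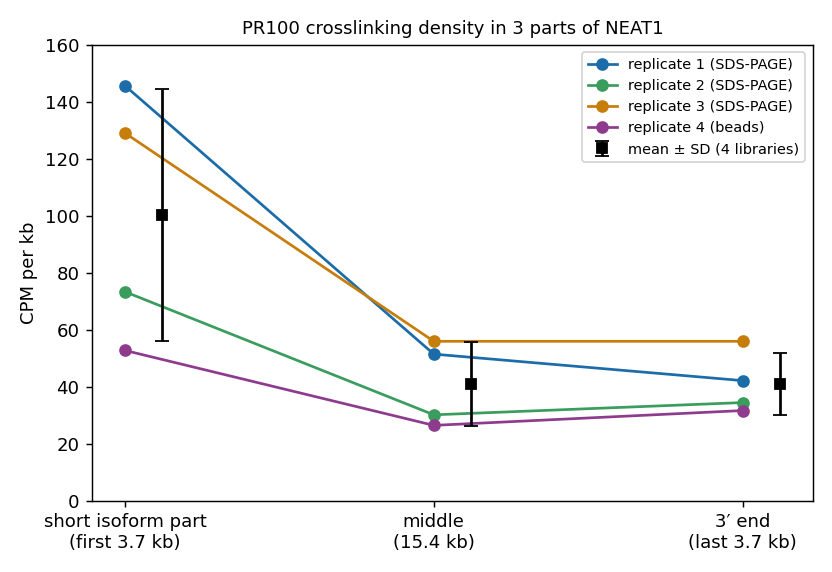
Crosslinking density in CPM per kb (linear axis from 0) in the short isoform part, the middle and the 3′ end of NEAT1; coloured points joined by lines are the 4 libraries and black squares are the mean ± SD. In every library the short isoform part is the highest of the 3, at 52.7 to 145.6 CPM per kb.

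Per kb, the short isoform part had 2.83, 2.43, 2.31 and 1.99 times the events of the middle in replicates 1 to 4. The mean log2 ratio was 1.25 ± 0.21 (SD, n = 4), a 2.37-fold difference in the same direction in 4 of 4 libraries (exact sign-flip permutation p = 0.125, the smallest possible). With each position counted once it was 1.19 ± 0.18. Without the events inside the 15 pooled clusters it was 0.66 ± 0.23, still above 0 in 4 of 4 libraries. The 3 parts also differed in how much of them can be mapped, since 100% of the positions of the short isoform part, 94.0% of the middle and 92.3% of the 3′ end begin a 30-mer found once in the genome. Restricted to such positions the log2 ratio was 1.18 ± 0.20.

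Against the 3′ end, the short isoform part had a log2 ratio of 1.79, 1.09, 1.21 and 0.74 in replicates 1 to 4 (mean 1.21 ± 0.44, exact sign-flip permutation p = 0.125). The 3′ end against the middle gave −0.29, 0.19, 0.00 and 0.26, on both sides of 0, with a mean of 0.04 ± 0.25 (exact sign-flip permutation p = 1.0). Apart from the start of the middle, into which some annotated short forms reach as far as nt 3740, both parts belong to the long isoform alone. With these borders the difference was within the spread between libraries. With the last 5 kb taken as the 3′ end it was 0.45 ± 0.36, above 0 in 4 of 4 libraries (exact sign-flip permutation p = 0.125).

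The middle of the long isoform includes the domain in which paraspeckle assembly takes place, taken here as nt 8001 to 17000. This domain held 131, 119, 67 and 31 events in replicates 1 to 4. Per kb, the log2 ratio of the domain to the rest of the middle was −0.52, −0.94, 0.21 and −0.94 in replicates 1 to 4 (mean −0.55 ± 0.54, exact sign-flip permutation p = 0.250). Replicate 3, the stacked library, had the opposite sign to the others, and without it the mean was −0.80 ± 0.24.

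In bins of 500 nt, no part of the RNA was free of pooled events, and 3 bins out of 46 held 22.5% of them. The bin from 2.0 to 2.5 kb had 142 events, of which 50, 58, 25 and 9 came from replicates 1 to 4. The first 0.5 kb had 89 events (32, 38, 9 and 10). The bin from 18.5 to 19 kb had 70 events, 28 in replicate 1 and 42 in replicate 2, with 0 in replicates 3 and 4. The first of these bins were therefore high in all libraries, while the last was found in a pair of them. The median bin had 22.0 events, and the fewest were 6 in the bin from 19.5 to 20 kb, 9 from 11.5 to 12 kb and 11 from 8 to 8.5 kb. In the bin with the fewest events, 70.2% of positions begin a unique 30-mer.

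**Figure D3:**
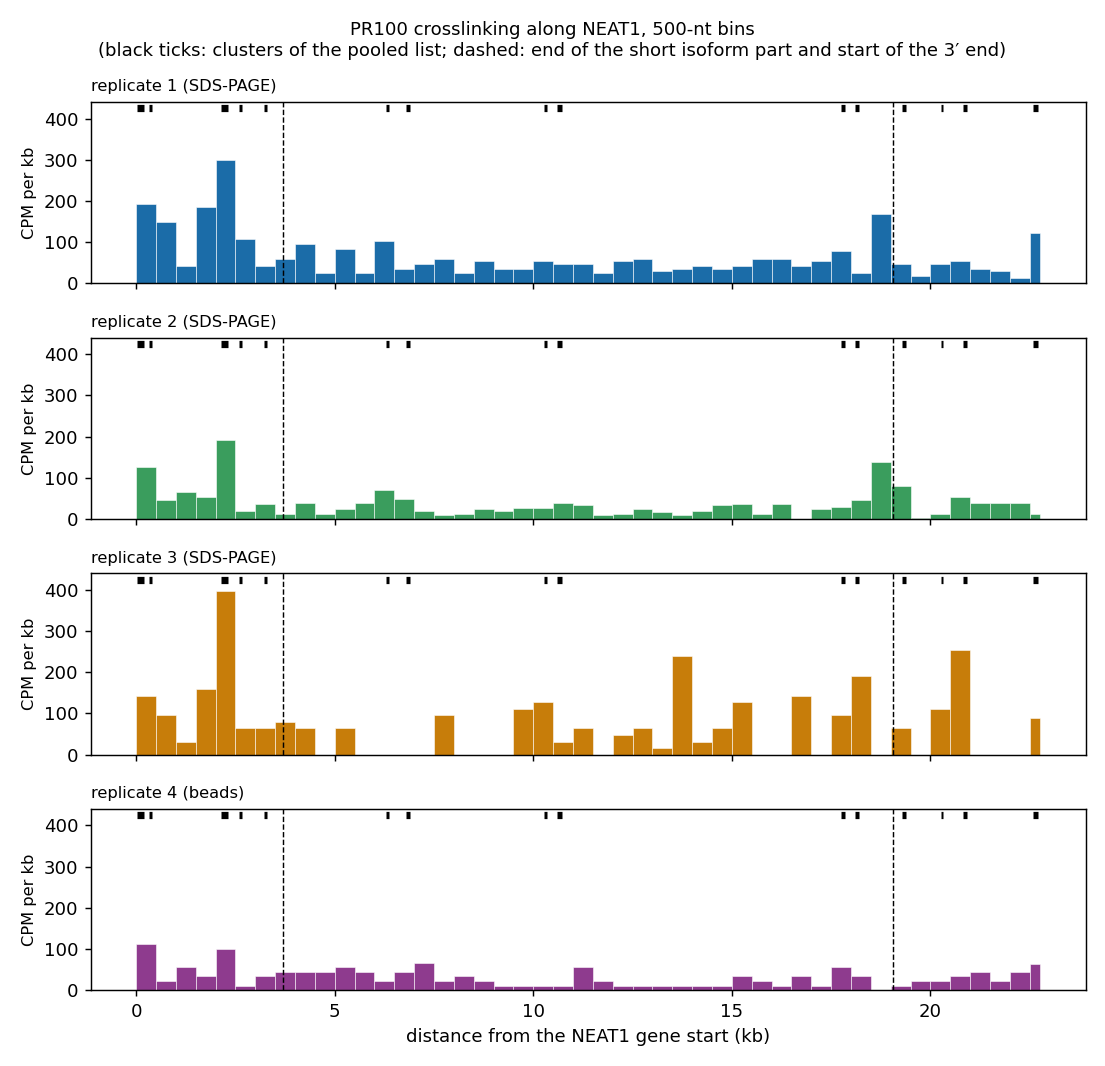
Crosslinking density in CPM per kb (linear axis) in 500-nt bins along NEAT1, against the distance from the gene start in kb, with 1 panel for each PR100-FLAG library; black ticks are the 15 pooled clusters and dashed lines bound the 3 parts. The bin from 2.0 to 2.5 kb stands high in all 4 panels, from 100.2 CPM per kb in replicate 4 to 397.8 in replicate 3.

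Across the gene, the libraries resembled each other only loosely. Over the 45 full bins, Spearman's rho between pairs of libraries ran from 0.03 to 0.36 and Pearson's r from 0.35 to 0.78, as a description of bins of 1 RNA that share its sequence. Of the 785 positions, 758 had events in 1 library, 24 in 2 libraries and 3 in 3 libraries, and 0 in all 4. Replicates 1 and 2, the deepest in NEAT1, shared 14 positions, out of 333 in replicate 1 and 309 in replicate 2.

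The pooled list held 15 clusters in NEAT1 with 358 cDNAs, 26.7% of its pooled events, and each had at least 10 cDNAs. Without the cDNAs of replicate 1, or without those of replicate 2, 9 of them still did. The short isoform part had 5 of them with 199 cDNAs, the middle 6 with 101 and the 3′ end 4 with 58. The lists of single libraries held 7 clusters in replicates 1 and 2 each, 4 in replicate 3 and 0 in replicate 4. Of the 15 pooled clusters, 5 overlapped no cluster of a single library, 7 overlapped those of 1 library, 2 those of 2 libraries and 1 those of 3 libraries. The share of NEAT1 events inside the clusters of the same library was 21.4% (interval 17.8 to 25.2) in replicate 1, 24.8% (21.1 to 28.7) in replicate 2, 33.5% (26.9 to 40.6) in replicate 3 and 0% (up to 2.82%) in replicate 4. In MALAT1 that share was 43.4%, 52.2%, 46.2% and 41.8% in replicates 1 to 4, above that of NEAT1 in every library. Over all RNAs of each library it was 4.23%, 12.9%, 8.44% and 9.78%. The difference between NEAT1 and the whole library was 17.1, 11.8, 25.1 and −9.78 percentage points (mean 11.1 ± 14.9, exact sign-flip permutation p = 0.250). Replicate 4 thus went against the other 3 libraries. Without replicate 4 the mean was 18.0 ± 6.67 points, and without replicate 3 it was 6.39 ± 14.3. The NEAT1 clusters of the single lists had at least 10 cDNAs each, and no pooled cluster held more than 7 cDNAs of replicate 4. With the clusters of the pooled list, to which all 4 libraries contribute, the difference was 12.7 ± 8.19 points, from 1.73 to 21.3. It was then above 0 in 4 of 4 libraries (exact sign-flip permutation p = 0.125).

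Cluster 3 was the one cluster found in 3 single libraries. It spans nt 2180 to 2290 (chr11:65424953-65425063) in the short isoform part and lies in the guanine-rich stretch shown above. Its 112 cDNAs were 41, 50, 14 and 7 in replicates 1 to 4. These are 8.27%, 9.60%, 7.22% and 5.43% of the NEAT1 events of each library. The cDNAs ended at 40 positions, of which 7 had events in 2 or more libraries. The position with the most, nt 2233, had 10 cDNAs in replicate 2, 1 in replicate 4 and 0 in replicates 1 and 3. At nt 2187 there were 5, 2, 0 and 1 cDNAs in replicates 1 to 4. Every library had events in this stretch, and most of its positions had events in 1 library.

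**Figure D4:**
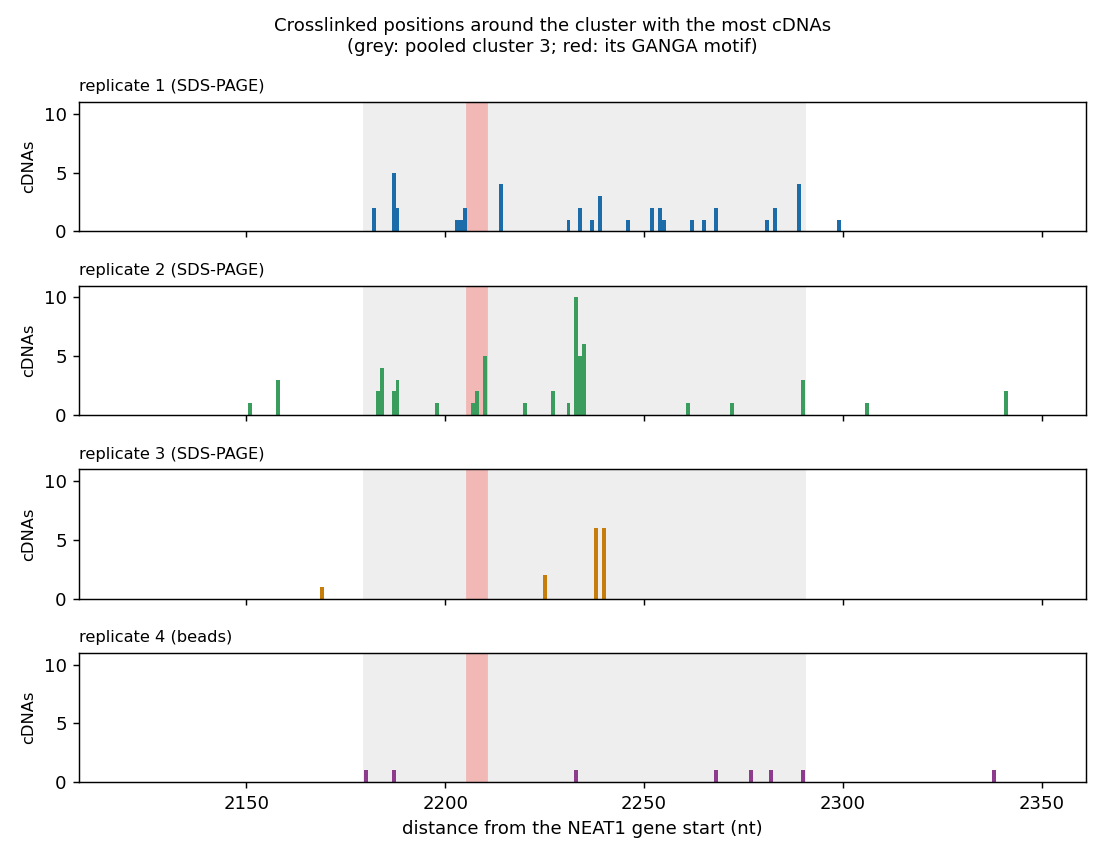
cDNAs per position (linear axis) against the distance from the NEAT1 gene start in nt, with 1 panel for each PR100-FLAG library; grey marks pooled cluster 3 (nt 2180 to 2290) and red its GANGA motif (nt 2206 to 2210). All 4 panels have events in the cluster, those of replicate 3 at 3 positions, with the tallest bar, 10 cDNAs, at nt 2233 in replicate 2.

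Cluster 1, near the start of both isoforms (nt 63 to 166), had 15, 19, 7 and 7 cDNAs in replicates 1 to 4 and was called in replicates 1 and 2. Cluster 11 (nt 18144 to 18183) had 0, 13, 12 and 2 cDNAs and was called in replicates 2 and 3. Cluster 15, close to the end of the long isoform (nt 22610 to 22674), had 10, 2, 3 and 2 and was called in replicate 1 alone. Of these 4 clusters, cluster 11 was the one with a library at 0.

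The clusters of the short isoform part were rich in guanine. All 5 of them had between 48.6% and 52.6% G. The short isoform part itself had 30.3% G, and the whole gene 23.6%. The first 0.5 kb, in which clusters 1 and 2 lie, had 42.2% G. The 10 clusters of the other parts ranged more widely, from 13.3% G to 52.3% G. In cluster 7 (nt 6833 to 6877) U made up 51.1%. U was the most frequent base in 5 of the 15 clusters.

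Guanine was also frequent around the events of the short isoform part as a whole. In the window from 5 nt before to 30 nt after an event in the short isoform part, G made up 37.0%, 40%, 42.9% and 35.9% in replicates 1 to 4. Over all positions of that part it made up 30.2%. The difference was 8.79 ± 3.16 percentage points (SD, n = 4), above 0 in 4 of 4 libraries (exact sign-flip permutation p = 0.125). In the middle the difference was −0.802, 0.162, 7.25 and 1.91 points (exact sign-flip permutation p = 0.375), and in the 3′ end it was above 0 in 1 of 4 libraries. Without the pooled clusters the difference in the short isoform part was 1.83 ± 3.67 points, above 0 in 3 of 4 libraries.

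GANGA was searched on the strand of the RNA with A, G or C but not U in the place of N. It is a purine-rich motif that the study marked near PR100 binding sites in NCL and NEFM. The pentamer that the study reported as most enriched at PR100 crosslinks was GAAGA. NEAT1 holds 59 such motifs, 23 GAAGA, 31 GAGGA and 5 GACGA. They are 5.14 per kb in the short isoform part, 2.02 per kb in the middle and 2.43 per kb in the 3′ end. A motif started from 5 nt before to 30 nt after 14.3%, 12.9%, 9.28% and 15.5% of the events in replicates 1 to 4. The same window held a motif at 8.26% of all positions of the gene. This background takes all parts together, although events and motifs were both densest in the short isoform part. The difference was 4.73 ± 2.70 percentage points, above 0 in 4 of 4 libraries (exact sign-flip permutation p = 0.125). Without the pooled clusters it was 1.83 ± 2.0 points, and for GAAGA alone it was 1.76 ± 2.61 points. Either way, and for a window of 0 to 50 nt downstream, it was above 0 in 3 of 4 libraries.

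By part, the share was above that of positions in every library in the short isoform part and not in the others. In the short isoform part, 26.1%, 29.9%, 20% and 25.7% of events in replicates 1 to 4 were near a GANGA motif, against 15.0% of positions, a difference of 10.4 ± 4.07 points. In the middle the shares were 6.82%, 5.00%, 5.56% and 12.3% against 6.72% of positions, a difference of 0.703 ± 3.36 points. The difference between these differences was 11, 16.6, 6.14 and 5.08 points in replicates 1 to 4 (mean 9.70 ± 5.26, exact sign-flip permutation p = 0.125). It remained without cluster 3 (9.94 ± 3.69), but without all 15 pooled clusters it was −1.08 ± 6.88 and had opposite signs among the libraries. Of the 15 pooled clusters, clusters 1, 2 and 3 had a GANGA motif in the window of any cDNA. In cluster 3 the single motif, GAAGA at nt 2206 to 2210, was near 35 of 112 cDNAs, in cluster 1 30 of 48 cDNAs were near a motif, and in cluster 2 14 of 14. The match of letters is a description and not evidence of a binding site.

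Crosslinks fell on uridine more often than the gene's makeup gives. U was the crosslinked base in 38.3%, 43.4%, 39.2% and 32.6% of events in replicates 1 to 4, while U makes up 31.7% of the gene. The difference was 6.65 ± 4.45 percentage points, above 0 in 4 of 4 libraries (exact sign-flip permutation p = 0.125). UV light crosslinks uridine readily, and over the rest of chromosome 11 the share of events on U was 37.8%, 31.0%, 38.7% and 29.5%. The part of UV in the difference was not tested.

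NEAT1 differed from MALAT1, the abundant nuclear speckle RNA encoded 52099 nt downstream, both in amount and in where it was crosslinked. MALAT1 had 2062, 2344, 424 and 744 events in replicates 1 to 4. Per kb of the annotated genes, NEAT1 had 0.110, 0.102, 0.210 and 0.0795 times the events of MALAT1, a mean log2 ratio of −3.10 ± 0.60 in the same direction in 4 of 4 libraries (exact sign-flip permutation p = 0.125). The abundance of either RNA was not measured. In MALAT1 the first 16.3% of the annotated span was crosslinked less densely than its middle, with a log2 ratio of −1.86 ± 0.53, where NEAT1 had 1.25 ± 0.21. The difference between the RNAs was 3.11 ± 0.50, above 0 in 4 of 4 libraries (exact sign-flip permutation p = 0.125). The last 16.3% of the annotated MALAT1 span held 0 events. Whether this stretch belongs to the RNA present in these cells was not tested. The MALAT1 values per kb and by part rest on the whole annotated span.

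Among genes with at least 200 pooled events outside the mitochondrial chromosome, those whose levels over the 4 libraries ran most like NEAT1's included VCAN, PAM, PCDH9 and CADM1. Likeness was the distance between log2(CPM + 1) values centred on each gene's mean, over 4 libraries and 759 genes. The distances were 0.03, 0.07, 0.11 and 0.17 against a median of 1.35. VCAN, which encodes the matrix proteoglycan versican, had 305.3, 178.6, 326.2 and 150.3 CPM in replicates 1 to 4. These genes were picked by these same values, so that they were high in replicates 1 and 3 like NEAT1 follows from the choice. The likeness rests on cDNA counts. With each position counted once VCAN had 285.4, 204.4, 137.4 and 166.5 CPM, and in all 4 genes, as in NEAT1, replicate 1 was then the highest and replicate 3 well below it. By cDNA counts MALAT1 had a distance of 1.03 and did not share the high level of replicate 3. With each position counted once MALAT1 had 3946.9, 2433.8, 1992.5 and 2913.6 CPM in replicates 1 to 4. It too was then highest in replicate 1 and well below that in replicate 3.

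The RNAs that encode paraspeckle proteins were also crosslinked, at lower levels than NEAT1. Of 28 such genes, 10 (35.7%) had at least 200 pooled events on the gene span, against 3.51% of the 20046 protein-coding genes. The number over the limit was 2 without replicate 2, which has the most events, and 6 without replicate 1 or replicate 4. The share of all protein-coding genes is given for all libraries together only, so the list cannot be set against it there. These are counts per gene that rise with its length and expression, which were not corrected for. Of the core proteins that bind NEAT1 and belong to the same family, SFPQ had 542 events (130, 278, 36 and 98 in replicates 1 to 4), NONO 224 and PSPC1 172. TAF15 and EWSR1, which encode related RNA-binding proteins, had 329 and 149. Others over the limit were SMARCA4, a chromatin remodelling ATPase, with 376, DAZAP1 with 345, and the hnRNP genes HNRNPH1, HNRNPUL1, HNRNPM and HNRNPR with 279, 273, 222 and 210. The fewest were 62 in CIRBP, 45 in NUDT21 and 40 in FAM98A. The median of the list was 165.5 events against 15.0 over all protein-coding genes, and the highest member, SFPQ, had 40.4% of the NEAT1 total.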

How the data were processed

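In iMaps, the authors split the iiCLIP reads by library, counted reads with the same random barcode once, aligned them to GRCh38 and Gencode 27 using STAR (2 mismatches allowed, version not given in the sources used here) and kept those with a single alignment, whose preceding nucleotide is the crosslinked position. The deposited values are counts of unique cDNAs per position, not normalised, and the sums of these counts in clusters, which the authors called in iCount (false discovery rate under 0.05). Tested on the files, the pooled position list was the sum of the 4 libraries.

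Events were counted on the gene strand with GENCODE 44 with scipy 1.17.1, numpy 2.4.6 and pandas 2.3.3 under Python 3.11.15, and scaled to the total of the library (CPM). Library totals were 334057, 604816, 125694 and 179636 for replicates 1 to 4. Ratios and differences were tested over libraries with an exact two-sided sign-flip permutation test, whose smallest p is 0.125, so no single comparison could pass 0.05. No adjustment for multiple tests was made, since none could pass. Counts under 3 were set to 3 in the log2 ratios tested. Intervals are exact Poisson, binomial (Clopper-Pearson) or conditional binomial ones at 95%. The counting was tested on simulated data. NEAT1, the parts, gene lists and tests were chosen with earlier results of these data known. Named genes were paraspeckle protein genes with at least 200 events, the 3 with the fewest and close relatives of named members, and the 5 most like NEAT1; named clusters were the 5 with the most cDNAs and any found in 3 libraries. The comparison of NEAT1 and MALAT1 by part, the motif by part and the base content of windows and clusters were added after the data were seen, and clusters 2 and 7, PSPC1 and EWSR1 were named then. Some items that these rules select are not reported here. Alternatives changed 1 choice at a time, except 10 added values with each position counted once and replicate 3 left out.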

Additional observations from a re-analysis of the deposited data

How the results depend on the processing

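Of 122 alternative values, 108 kept their direction and, for counts, stayed within 1.5 times, 5 changed sign and 9 counts moved further. All 5 sign changes were in the log2 ratio of the 3′ end to the middle, 0.04 with all data. It was −0.47 without the pooled clusters, −0.06 without the top position of each part and −0.10 with a 3′ end of 1 kb, and it ran from −0.03 to 0.15 when 1 library was left out, below 0 without replicate 2 (−0.01) and without replicate 4 (−0.03). The cause was not tested. The number of pooled clusters in NEAT1, 15, is of clusters with at least 10 cDNAs. It ran from 9 to 15 when the cDNAs of 1 library were left out, with 9 without replicate 1 or without replicate 2, and 4 clusters had at least 20 cDNAs. The number of paraspeckle protein genes with enough events, 10, ran from 2 (without replicate 2) to 8, with 6 without replicate 1 or replicate 4. It was 4 with each position counted once, 20 at a minimum of 100 events and 1 at a minimum of 400, as fewer or more events were asked for. The share of all protein-coding genes, 3.51% at 200 events with all libraries, is not given for these settings. Whether the list moved differently from all genes was not tested. Leaving out 1 library moved the ratio of the short isoform part to the middle between 1.16 and 1.33. The difference in GANGA share was 8.68 ± 2.42 points for a window of 30 nt on each side. Leaving out 1 library leaves 3, for which the smallest p is 0.250. No pairing between conditions was possible because all 4 libraries belong to 1 group, and the tests used ratios and differences taken within each library. Replicate 4 had the fewest NEAT1 events, and its 35 events in the short isoform part leave a share between 19.7% and 35.7%. Replicate 3 was the shallowest library in all, and its NEAT1 events lay on 47 positions against 126 in replicate 4.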

Other observations

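The share of A and of G at the base just after the crosslinked position in NEAT1 differed widely between libraries. It was A in 21.0%, 31.1%, 10.8% and 42.6% of events in replicates 1 to 4, in a gene of 24.2% A. It was G in 13.3%, 14.4%, 31.4% and 7.75%. On chromosome 11 outside NEAT1 the same base was A in 28.3%, 31.4%, 26.3% and 38.9% and G in 10.2%, 10.1%, 17.7% and 8.56%, so replicate 4 was the highest in A and replicate 3 the highest in G in both. C at this base was below its 20.4% of the gene in 4 of 4 libraries, with a difference of −4.99 ± 2.45 percentage points (exact sign-flip permutation p = 0.125, n = 4).

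In the 3′ end the window around events held more U than the part as a whole, with 26.5%, 29.1%, 29.6% and 28.8% in replicates 1 to 4 against 25.3%, a difference of 3.21 ± 1.37 points (exact sign-flip permutation p = 0.125). Replicates 3 and 4 had few events there, 26 at 6 positions and 21 at 21 positions. In the short isoform part U was lower around events, with differences of −1.79, −6.01, −7.19 and −4.57 points. In the middle the libraries split, with 38.0% and 38.8% U in replicates 1 and 2, 30.3% in replicates 3 and 4, and 34.2% over all positions.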
